A study of Mus musculus with 12 samples.

Results

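The genes described here encode the nuclear part of oxidative phosphorylation. They were taken by symbol, as every gene whose name starts with Ndufa, Ndufb, Ndufc, Ndufs, Ndufv, Uqcr, Sdh, Cox4, Cox5, Cox6, Cox7, Cox8 or Atp5, which gave 94 of the 24062 genes in the count table. By complex, these were 43 genes of complex I, 6 of complex II, 8 of complex III, 20 of complex IV and 17 of ATP synthase, including 9 assembly factors, 7 tissue-restricted isoforms of complex IV and 4 related proteins. The study set out to find how the transcriptome changes in tauopathy and what a reduction of the RNA-binding protein TIA1 does to it. RNA from the brain, given by the methods as cortex, of 3 mice per genotype was sequenced at 9 months of age, with 1 library per mouse. The groups were WT mice, Tia1+/- mice, PS19 mice (labelled P301S), and P301S Tia1+/- mice.

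PS19 mice carry a human tau transgene with the P301S mutation, driven by the mouse prion protein promoter and made in a mixed B6;C3 background, and the Tia1+/- mice carry 1 frame-shifted copy of Tia1 on C57BL/6J. The 2 lines were crossed, and mice with end-stage or motor symptoms were left out. Libraries are grouped by their titles, since for the Tia1+/- and the P301S Tia1+/- mice the genotype entry disagrees with the title and gives the other of both genotypes.

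The 5 complexes sit in the inner mitochondrial membrane. Complex I oxidizes NADH and complex II oxidizes succinate, both pass electrons through ubiquinone to complex III and by cytochrome c to complex IV, where oxygen is reduced, and ATP synthase uses the proton gradient that complexes I, III and IV build. Complex II is encoded wholly in the nucleus, while the others combine nuclear subunits with subunits made from the mitochondrial genome. No mitochondrial-genome gene is in the count table used here (0 symbols), so only the nuclear side was measured. Neurons spend much of their ATP on ion pumping and synaptic transmission and depend heavily on this pathway.

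Several features of the libraries bear on the results. Total counts ranged from 11978962 to 19146484 per library, of which the 94 genes took between 1.12% and 1.44%. All WT and PS19 libraries held between 3363 and 4944 counts of Y-linked genes and at most 13 of Xist, while all Tia1+/- and P301S Tia1+/- libraries held between 3304 and 5693 of Xist and at most 5 Y-linked counts, although the methods describe male mice. Sex and Tia1 genotype therefore cannot be told apart here. The paper attributes this pattern to Tia1 heterozygosity. By PCR in other, younger mice it reports higher Xist and lower Y-linked transcripts in Tia1+/- males, and higher Xist in Tia1+/- females. Tia1 itself was at 82.0 ± 10.3 CPM (counts scaled to 1e+06 per library after TMM normalization, mean ± SD, n = 3) in WT, 68.0 ± 10.3 for Tia1+/-, 73.5 ± 3.87 for PS19 and 74.7 ± 2.76 for P301S Tia1+/-. Its difference was −0.27 on the log2 scale between Tia1+/- and WT (edgeR's quasi-likelihood test, adjusted p = 0.239) and 0.022 between P301S Tia1+/- and PS19 (adjusted p = 0.934). Its mRNA level therefore did not separate the groups, which are named by their labels, and an RNA from a frame-shifted copy may still be counted. Prnp, whose promoter drives the tau transgene, was at 1334, 1879 and 1700 CPM for WT and 2124, 2018 and 2158 for PS19. It was at 1922, 1664 and 996 CPM for Tia1+/- and 1500, 1535 and 1404 for P301S Tia1+/-. Only PS19 lay above WT in every library, so Prnp did not mark the transgene in the P301S Tia1+/- group. Whether RNA of the transgene is counted as Prnp was not tested.

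Markers of other brain regions also differed. The 11 olfactory bulb markers, all of them tested, summed to between 965 and 1113 CPM for P301S Tia1+/-, 39.2 and 50.7 for PS19, 41.4 and 227 for Tia1+/-, and 78.6 and 1501 for WT, with the highest value in WT replicate 1. Omp, the marker of olfactory sensory axons, was at 72.6, 135 and 133 CPM for P301S Tia1+/- and at 0.26, 0.56 and 0.54 CPM for PS19. Of 9 striatum markers 8 were tested, and they summed to 1860 CPM for Tia1+/- replicate 3 and to between 130 and 342 in the other 11 libraries. The 8 neuron markers summed to between 5418 and 6273 CPM for P301S Tia1+/-, 7076 and 8620 for PS19, 4879 and 8616 for Tia1+/-, and 5197 and 9068 for WT. In bulk tissue, fewer cells of a type and less RNA per cell cannot be told apart. The part of tissue makeup in the values below was not tested. They are also given without WT replicate 1 and Tia1+/- replicate 3 where that matters.

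Of the 94 genes, 90 passed the filter on low counts and were tested among 15440 genes. The 4 that did not pass were Cox8c, with no count in any library, Cox7b2 (0.059 to 0.84 CPM), Cox8b (0 to 0.89 CPM) and Ndufs5. The first 3 are testis or muscle forms of complex IV subunits. Ndufs5 encodes a constitutive subunit of complex I and was at 0 counts in 10 libraries and at 1 count in the other 2, so it is listed as nearly uncounted and says nothing about the complex.

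Promoter stretches free of annotated exons are shown for 3 members that led the comparisons below, chosen to show a stretch with NRF1 and Sp letters (Ndufaf4), another with Sp letters (Cox5a) and another with neither (Cox7c). Many genes of this pathway are known targets of NRF1, of GABPA and other ETS factors, of YY1 and of ERRalpha. Windows from 250 bases before to 50 after the start, from RefSeq on GRCm38.p6, were found for 78 of the 94 genes. Capitals mark matches on either strand to NRF1 (GCGCATGCG) or to the Sp family (GGGCGG). Each stretch is written 5′ to 3′ on the gene's strand, and lies at chr4:24897963-24898082 (plus strand) for Ndufaf4, chr9:57521112-57521231 (plus strand) for Cox5a and chr13:86046905-86047024 (minus strand) for Cox7c.
Ndufaf4: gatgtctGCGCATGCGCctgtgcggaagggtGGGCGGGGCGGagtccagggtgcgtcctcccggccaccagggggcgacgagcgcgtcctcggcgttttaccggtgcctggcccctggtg
Cox5a: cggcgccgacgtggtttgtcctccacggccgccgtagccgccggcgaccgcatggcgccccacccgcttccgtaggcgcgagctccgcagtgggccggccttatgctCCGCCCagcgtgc
Cox7c: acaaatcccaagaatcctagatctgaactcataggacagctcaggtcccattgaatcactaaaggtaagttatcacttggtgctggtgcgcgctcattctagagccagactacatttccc
The Ndufaf4 and Cox5a stretches end at the base before the RefSeq start, and the Cox7c stretch ends 109 bases before it. The gene positions given below are those of GENCODE, whose gene ends can differ from the RefSeq starts. Ndufaf4 holds the NRF1 letters on both strands, in matches that overlap and begin 113 and 112 bases before the start, and 2 overlapping Sp matches. Cox5a holds 1 Sp match on the opposite strand, 13 bases before the start, and the Cox7c stretch holds none of the motifs searched. Of the other leading genes with a window, Atp5g2 has overlapping NRF1 letters on both strands, from 42 bases before its start, and Ndufc1 has the YY1 letters from base 23 after its start.

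Over the 78 windows, the NRF1 letters occurred in 10 genes (12.8%), against 1.95% of 27025 genes with a window. These 10 were Atp5l, Atp5k and Atp5g2 of ATP synthase, Ndufa11, Ndufa8, Ndufaf5 and Ndufaf4 of complex I and its assembly, Uqcr11 and Uqcrc1 of complex III, and Cox6a1 of complex IV. The ETS letters CCGGAAG occurred in 19 genes (24.4%, against 9.93%), the YY1 letters AAGATGGCG in 8 (10.3%, against 1.64%) and the ERRalpha letters TCAAGGTCA in 2 (2.56%, against 0.466%). The Sp letters GGGCGG occurred in 36 genes (46.2%, against 38.2%), and the TATA box letters TATAAA in 7 (8.97%, against 15.7%). Both strands were searched, and a match describes the letters in the window only.

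The level of each subunit was first compared per length, as CPM per kilobase of the principal transcript, over all 12 libraries. In ATP synthase, Atp5b, the catalytic beta subunit, was highest at 800 ± 52.2 (SD, n = 12) and Atp5j2, the f subunit of the membrane part, lowest at 113 ± 8.59, a ratio of 7.10. Atp5a1, the alpha subunit that pairs with beta in the F1 head, was at 483 ± 30.0 and Atp5c1, the rotating gamma stalk, at 239 ± 19.5. Alpha and beta outnumber gamma in the enzyme, and the transcript levels followed the order beta, alpha, gamma. The ranges of the 12 libraries of these 3 genes did not overlap.

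In complex IV, Cox4i1, the largest nuclear subunit, was highest at 613 ± 39.3 and Cox7b lowest at 178 ± 19.3. Cox5b, which binds zinc, was at 245 ± 19.2 and Cox5a, on the matrix side, at 192 ± 17.0. In complex III, Uqcrh, the hinge protein, was highest at 341 ± 27.9 and Uqcrfs1, the Rieske iron-sulphur protein that takes electrons from ubiquinol, lowest at 86.1 ± 8.25. The core proteins Uqcrc1 and Uqcrc2 were at 149 ± 9.55 and 135 ± 9.81.

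Complex I had the lowest median over its tested subunits, 89.2 CPM per kb, against 101 in complex II, 169 in complex III, 233 in ATP synthase and 304 in complex IV. Ndufb9 was its highest member at 233 ± 23.1 and Ndufc1 its lowest at 31.9 ± 2.24, a ratio of 7.28. The 7 nuclear core subunits, which carry the flavin and the iron-sulphur chain, lay in between. Ndufv1, which binds NADH, was at 122 ± 7.75. Ndufs3 was at 108 ± 5.98, Ndufs7 at 91.8 ± 5.51, Ndufv2 at 83.7 ± 5.99, Ndufs1 at 81.9 ± 4.0 and Ndufs8 at 78.0 ± 4.32. In the order given, the library ranges of each pair of neighbours overlapped.

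In complex II, the flavoprotein Sdha was at 158 ± 7.60, the iron-sulphur protein Sdhb at 126 ± 9.30, and the membrane anchors Sdhd and Sdhc at 76.0 ± 3.73 and 25.1 ± 3.12. The library ranges overlapped between Sdha and Sdhb, and not between the lower neighbours. The 4 proteins are present in equal numbers in the enzyme, while their transcripts spanned a ratio of 6.29. The annotated Sdhc transcript used as its length has 3171 bases, the longest of the 4, and another transcript length would move its value.

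**Figure D1:**
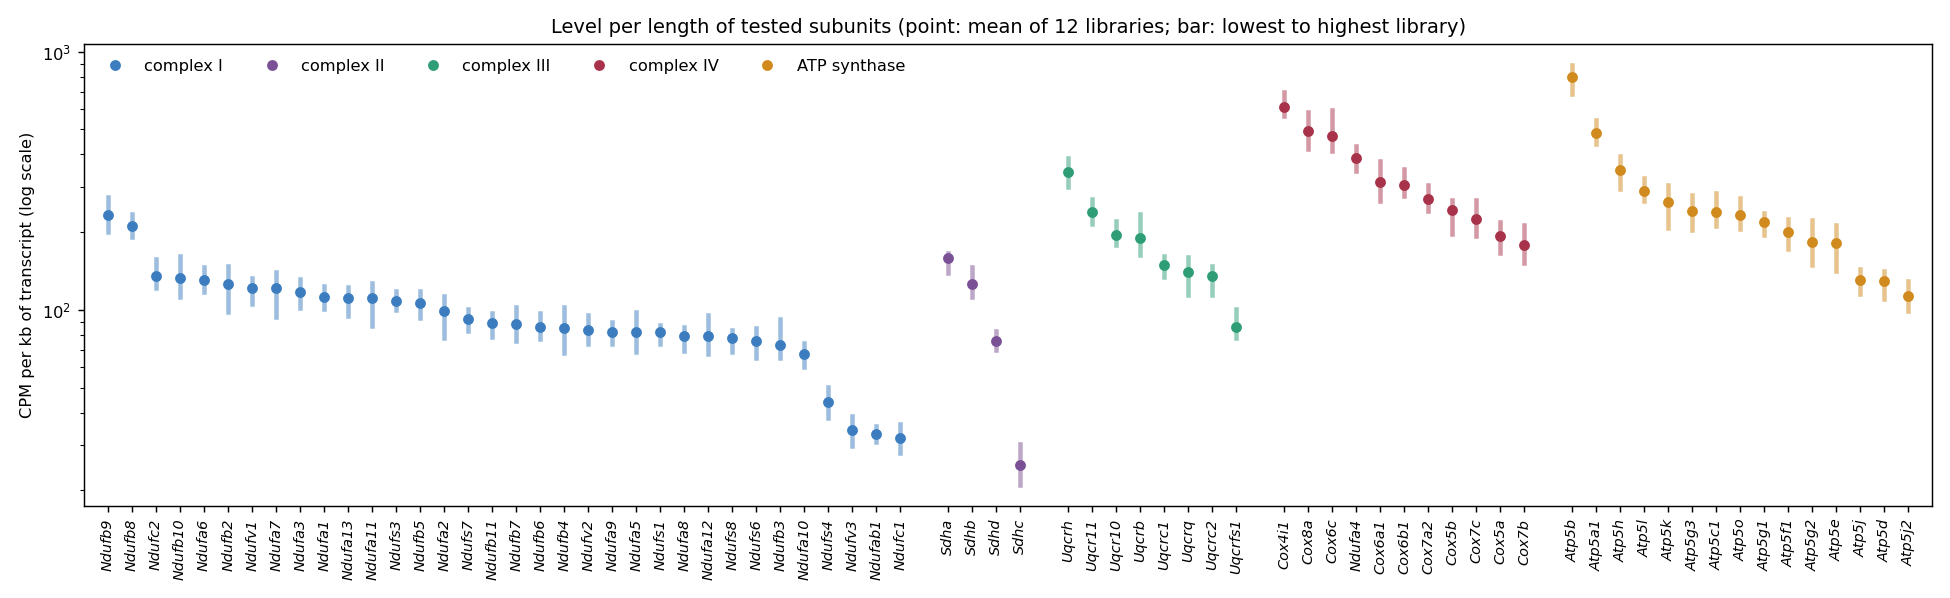
Level per length of tested subunits, in CPM per kb of transcript on a log scale, grouped by complex and sorted by level. Points are means of 12 libraries and bars run from the lowest to the highest library. Atp5b at 800 and Cox4i1 at 613 are the highest, and Sdhc at 25.1 the lowest.

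The isoforms of complex IV subunits lay far apart. Cox6a1, the form found in most tissues, was at 314 CPM per kb, and its heart and muscle form Cox6a2 at 5.26. Cox7a2 was at 270 and its muscle form Cox7a1 at 3.82, Cox8a at 495 and its muscle form Cox8b at 0.78, Cox6b1 at 304 and its testis form Cox6b2 at 1.04, and Cox4i1 at 613 and its lung form Cox4i2 at 0.99. Ndufa4, now placed in complex IV, was at 387 and its hypoxia-induced relative Ndufa4l2 at 0.86.

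Between libraries the subunits varied little. The ratio of the highest to the lowest library was between 1.16 and 1.52 over the 73 tested subunits, with a median of 1.30. PS19 had the lowest of the 4 group means in 45 of the 73 subunits and the highest in 0. P301S Tia1+/- had the highest mean in 36 and WT in 30. PS19 replicate 2 was the lowest of the 12 libraries in 25 subunits, and P301S Tia1+/- replicate 1 the highest in 28. Rn45s, a ribosomal RNA gene, took 2.71% of PS19 replicate 2 and between 0.117% and 1.03% of the others, and its part in the low values was not tested.

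In the order of replicates 1 to 3, as in all such values below, the summed level of all 94 genes was 12549, 13432 and 13426 CPM for WT, 12503, 13428 and 12278 for Tia1+/-, 12638, 11699 and 12530 for PS19, and 14003, 13282 and 12782 for P301S Tia1+/-. The highest PS19 library lay above the lowest WT and below the lowest P301S Tia1+/- library. The 15 ATP synthase subunits summed to 4860, 4932 and 4855 CPM for WT, 4556, 4896 and 4567 for Tia1+/-, 4669, 4278 and 4627 for PS19, and 5311, 5024 and 4869 for P301S Tia1+/-. Here PS19 lay below WT and below P301S Tia1+/- in every library, with means of 4525 ± 215, 4882 ± 43.2 and 5068 ± 224 (SD, n = 3).

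Complex IV subunits summed to 2295, 2612 and 2589 CPM for WT, 2342, 2552 and 2171 for Tia1+/-, 2290, 2125 and 2326 for PS19, and 2540, 2421 and 2312 for P301S Tia1+/-. Complex I subunits summed to 3328 ± 198, 3308 ± 161, 3168 ± 132 and 3377 ± 151 CPM for WT, Tia1+/-, PS19 and P301S Tia1+/-, and complex III to 1173 ± 45.7, 1151 ± 60.9, 1105 ± 39.1 and 1192 ± 66.2. For complexes I, III and IV the PS19 libraries overlapped those of the other groups. Complex II differed in order, with 759 ± 44.6, 765 ± 1.63, 767 ± 16.8 and 813 ± 35.4, so that PS19 was not the lowest group. The 7 assembly factors of complex I had another order, with 222 ± 6.85, 206 ± 9.35, 203 ± 5.23 and 194 ± 15.3.

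**Figure D2:**
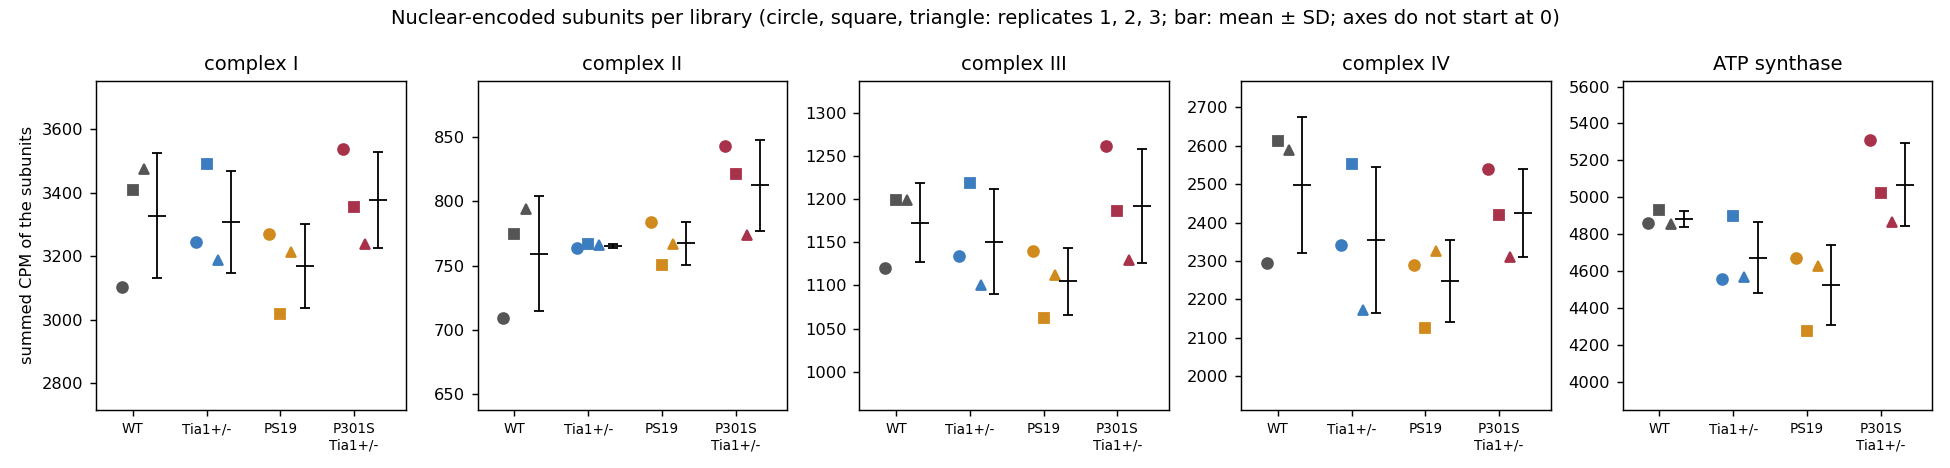
Summed CPM of the tested subunits of each complex in every library, by group, with the mean ± SD beside the points (axes do not start at 0). In ATP synthase the 3 PS19 libraries lie at 4278 to 4669, below all WT libraries (4855 to 4932) and all P301S Tia1+/- libraries (4869 to 5311).

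In PS19 against WT cortex, no member passed the threshold of an adjusted p of 0.05 in edgeR's quasi-likelihood test, as did none of all genes tested (0%). At an unadjusted p under 0.05 there were 9 members of 90, all lower in PS19, against 16.3% of all genes, and DESeq2 called 2, Cox7c and Cox5a, against 2.88% of all genes. Of the 90 members 65 had a negative log2 fold change, with a median of −0.084, while 51% of all genes were negative with a median of −0.0066. In 18 members every PS19 library lay below every WT library, against 11% of all genes, and in 1 every PS19 library lay above, against 9.75%.

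By complex, all 11 complex IV subunits had negative values (median −0.14). So had all 10 subunits of the Fo part and peripheral stalk of ATP synthase (median −0.16). Of its 5 F1 subunits, which include the gamma stalk, 3 were negative (median −0.069). Of complex I subunits 25 of 35 were negative (median −0.050), of complex III 6 of 8 (median −0.047) and of complex II 2 of 4 (median −0.026). None of these values is a call on a single gene.

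Cox7c, a small subunit of complex IV at 13:86044816-86046904, had the smallest p. It was at 138, 144 and 130 CPM for WT, 118, 121 and 117 for Tia1+/-, 108, 105 and 109 for PS19, and 133, 117 and 112 for P301S Tia1+/-. All PS19 libraries lay below all others. The log2 difference between PS19 and WT was −0.35 (SE 0.079, adjusted p = 0.157 by edgeR's quasi-likelihood test and 0.00521 by DESeq2).

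Cox5a, at 9:57521274-57532426, was at 134, 138 and 128 CPM for WT, 121, 126 and 119 for Tia1+/-, 114, 108 and 107 for PS19, and 141, 130 and 124 for P301S Tia1+/-. PS19 was again the lowest group with no overlap, and P301S Tia1+/- overlapped WT. The difference between PS19 and WT was −0.28 (SE 0.071, adjusted p = 0.159 by edgeR's quasi-likelihood test and 0.00964 by DESeq2). Over the 23 settings tried, it lay between −0.30 and −0.23, and 1 setting, DESeq2, called it.

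Next by p was Ndufaf4, an assembly factor of complex I at 4:24898083-24905001. It was at 78.4, 60.9 and 57.3 CPM for WT, 46.0, 48.7 and 55.1 for Tia1+/-, 50.3, 45.5 and 52.1 for PS19, and 50.2, 46.5 and 42.4 for P301S Tia1+/-. WT was higher than the other 3 groups in every library, and WT replicate 1, the library with the high olfactory bulb markers, was highest. The difference between PS19 and WT was −0.41 (SE 0.126, adjusted p = 0.186 by edgeR's quasi-likelihood test), but it ranged from −0.48 to −0.072 over the settings and was −0.25 without WT replicate 1.

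**Figure D3:**
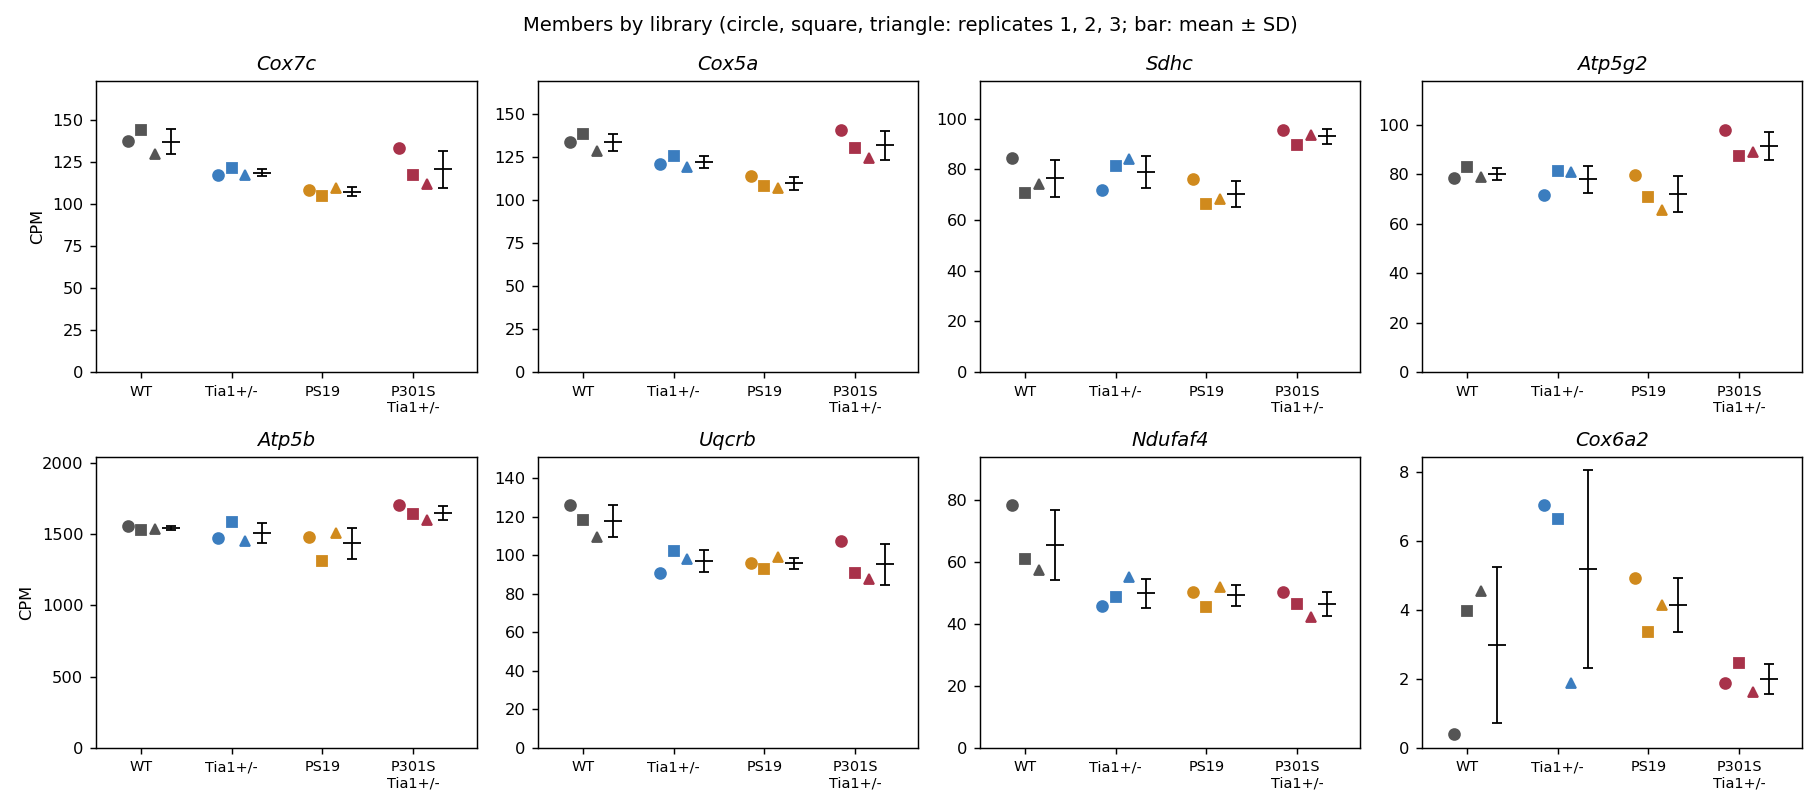
Level of 8 members in every library (CPM, from 0), by group, with the mean ± SD beside the points. Cox7c and Cox5a are lowest in the 3 PS19 libraries, Sdhc and Atp5g2 highest in the 3 P301S Tia1+/- libraries, and Ndufaf4 highest in WT replicate 1.

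In Tia1+/- against WT cortex, 0 members were called by edgeR's quasi-likelihood test, against 0.712% of all genes, 7 had an unadjusted p under 0.05 (2 higher and 5 lower in Tia1+/-), against 19.1%, and DESeq2 called 0, against 6.33%. Of the 90 members 54 were negative, with a median of −0.038 against 0.0057 over all genes. Libraries did not overlap in 2 members that were higher, against 9.6% of all genes, and in 8 that were lower, against 10.4%. Complex IV subunits were negative in 10 of 11 (median −0.091), ATP synthase in 10 of 15 (median −0.069) and complex I in 20 of 35 (median −0.012).

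The 3 members with the smallest p were Ndufaf4 (log2 difference −0.39, SE 0.126, adjusted p = 0.132 by edgeR's quasi-likelihood test), Uqcrb (−0.28, SE 0.093, adjusted p = 0.139) and Cox7c (−0.21, SE 0.079, adjusted p = 0.185). Over the settings, Ndufaf4 ranged from −0.47 to −0.14 (with the bulb markers as covariate), Uqcrb from −0.32 to −0.14 and Cox7c from −0.24 to −0.14, the last 2 lowest in size with offsets for GC content and length. Uqcrb, at 13:66900617-66905378, encodes the complex III subunit next to the ubiquinone site. It was at 126, 118 and 110 CPM for WT, 90.6, 102 and 98.2 for Tia1+/-, 95.8, 92.8 and 98.8 for PS19, and 107, 90.9 and 87.5 for P301S Tia1+/-. As in Ndufaf4, all 3 WT libraries lay above the other 9. Since both comparisons with WT share the WT libraries, this pattern in PS19 and in Tia1+/- rests on the same 3 mice. The X-linked members Ndufa1, Ndufb11 and Cox7b had log2 differences of −0.043, 0.078 and −0.18 between Tia1+/- and WT and of 0.082, 0.15 and −0.072 between P301S Tia1+/- and PS19, with no adjusted p under the threshold.

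The comparison of P301S Tia1+/- with PS19 asks what the Tia1+/- label goes with in mice labelled with P301S tau. Here too, sex cannot be told apart from Tia1 genotype. All 11 olfactory bulb markers were positive in this comparison (median 6.16), and their part was not tested. No member was called, against 0.24% of all genes, and the lowest adjusted p of a member was 0.0921 (edgeR's quasi-likelihood test). At an unadjusted p under 0.05 there were 14 members, all higher in P301S Tia1+/-, against 19.3% of all genes, and DESeq2 called 3, against 5.53%. Of the 90 members 70 had a positive log2 fold change, with a median of 0.093, against 51.5% of all genes and a median of 0.0097. In 36 members every P301S Tia1+/- library lay above every PS19 library, against 20.2% of all genes, and in 1, Cox6a2, every library lay below, against 18.2%.

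ATP synthase had the largest median of the 5 complexes, 0.19, with 14 of 15 subunits positive and 10 that did not overlap. All 5 F1 subunits were positive (median 0.20). Complex I was positive in 30 of 35 (median 0.093, 12 without overlap), complex II in 4 of 4 (median 0.12, 2), complex III in 7 of 8 (median 0.10, 5) and complex IV in 10 of 11 (median 0.095, 4). In contrast to the subunits, the complex I assembly factors were positive in 2 of 7 (median −0.088), and the 4 tested tissue isoforms of complex IV in 0. The difference between subunits and assembly factors was not tested.

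Sdhc, the cytochrome b anchor of complex II at 1:171127165-171150603, had the smallest p. It was at 84.5, 70.5 and 74.3 CPM for WT, 72.0, 81.2 and 84.0 for Tia1+/-, 76.2, 66.4 and 68.4 for PS19, and 95.7, 89.6 and 93.5 for P301S Tia1+/-. All 3 P301S Tia1+/- libraries lay above the other 9, which overlapped each other. The difference from PS19 was 0.40 (SE 0.093, adjusted p = 0.0921 by edgeR's quasi-likelihood test and 0.00643 by DESeq2), and it passed the threshold in 4 of 23 settings, over which it ranged from 0.16 (with the bulb markers as covariate) to 0.44. Of the other 3 subunits, Sdha was at 465 ± 7.62 and 467 ± 23.0 CPM in PS19 and P301S Tia1+/-, Sdhb at 141 ± 1.14 and 155 ± 12, and Sdhd at 91.1 ± 5.22 and 97.7 ± 3.49.

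Atp5g2, at 15:102662864-102672352, is 1 of 3 genes for the c subunit that forms the rotor ring of ATP synthase. It was at 78.7, 82.8 and 79.1 CPM for WT, 71.8, 81.5 and 81.1 for Tia1+/-, 79.8, 70.7 and 65.8 for PS19, and 98.2, 87.3 and 89.2 for P301S Tia1+/-. P301S Tia1+/- was again above all other libraries. The difference from PS19 was 0.35 (SE 0.090, adjusted p = 0.109 by edgeR's quasi-likelihood test and 0.0202 by DESeq2). Cox5a, described above, came next with 0.26 (SE 0.071, adjusted p = 0.114 by edgeR's quasi-likelihood test and 0.0151 by DESeq2).

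Atp5b, the most abundant member, at 10:128083273-128090391, was at 1557, 1531 and 1536 CPM for WT, 1475, 1587 and 1455 for Tia1+/-, 1480, 1313 and 1511 for PS19, and 1703, 1642 and 1600 for P301S Tia1+/-. The 3 P301S Tia1+/- libraries were the highest and PS19 replicate 2 the lowest. Its difference between P301S Tia1+/- and PS19 was 0.20 (SE 0.083, adjusted p = 0.226 by edgeR's quasi-likelihood test), and Atp5a1 and Atp5c1 had 0.17 (adjusted p = 0.244) and 0.20 (adjusted p = 0.236). Cox4i1 had 0.13 (adjusted p = 0.392) and Ndufs1 0.056 (adjusted p = 0.715).

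**Figure D4:**
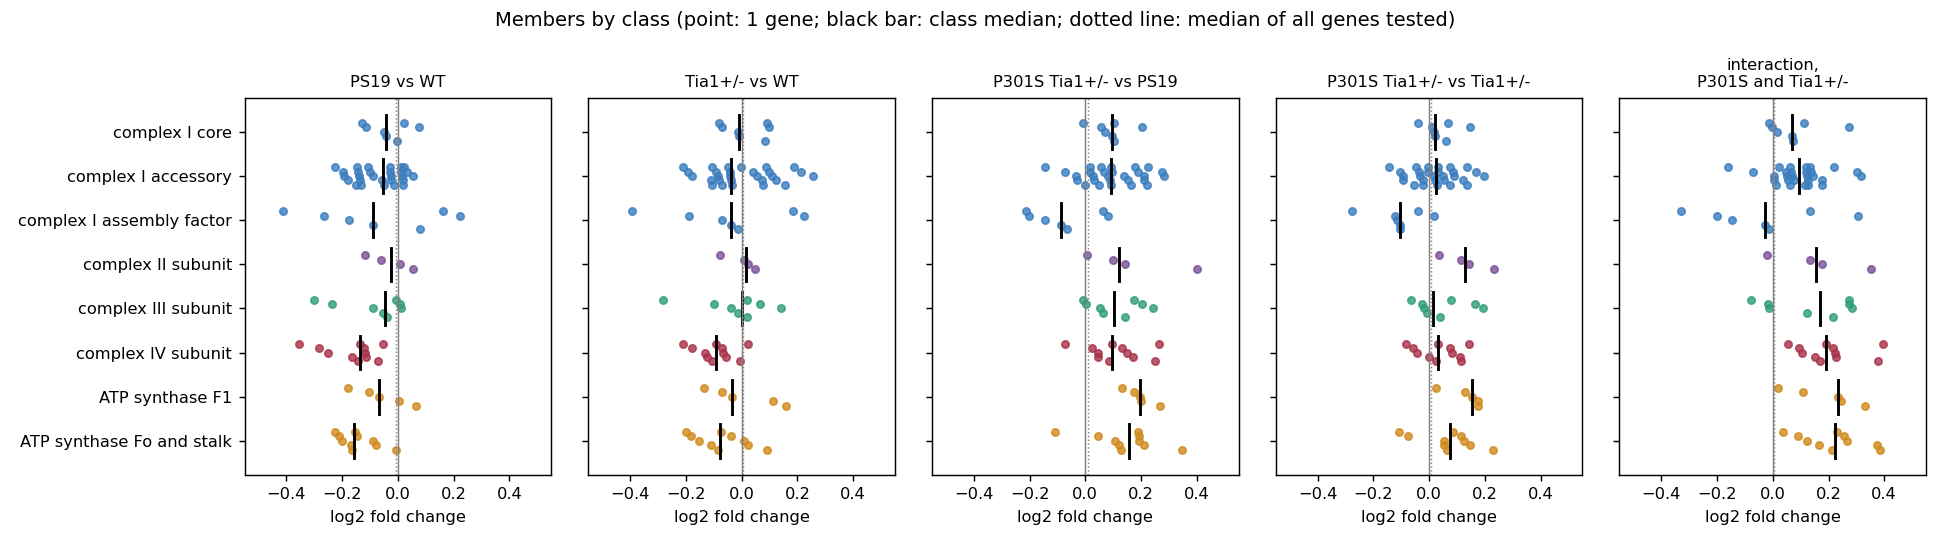
Log2 fold change of the 73 tested subunits and the 7 assembly factors of complex I in the 5 comparisons, by class. Tissue-restricted isoforms, related proteins and assembly factors of complex II are not drawn. Each point is 1 gene, the black bar is the median of the class and the dotted line the median of all 15440 genes tested. Complex IV and Fo subunits lie left of 0 for PS19 against WT, and most subunits lie right of 0 for P301S Tia1+/- against PS19, where the complex I assembly factors have a median of −0.088.

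Against Tia1+/- cortex, P301S Tia1+/- cortex again had no member called, against 0% of all genes. Of the members 5 had an unadjusted p under 0.05, all higher, against 15.6%, and DESeq2 called 0, against 2.62%. Of 90 members 57 were positive with a median of 0.034, against 0.0064 over all genes. Every library was higher in 10 members, against 14.9% of all genes, and lower in 1, against 11.1%. ATP synthase was positive in 13 of 15 (median 0.12), complex II in 4 of 4 (median 0.13), complex IV in 7 of 11 (median 0.031), complex I in 22 of 35 (median 0.022), complex III in 4 of 8 (median 0.016) and the complex I assembly factors in 1 of 7 (median −0.11). The smallest p belonged to Atp5g2 (0.23, SE 0.089, adjusted p = 0.264 by edgeR's quasi-likelihood test), Sdhc (0.23, SE 0.093, adjusted p = 0.270) and Ndufc1 (0.20, SE 0.083, adjusted p = 0.290). Ndufc1, a membrane subunit of complex I at 3:51404677-51408988, was at 34.8, 38.1 and 39.0 CPM for Tia1+/- and at 45.0, 40.8 and 42.5 for P301S Tia1+/-, so these groups did not overlap. PS19, at 42.4, 38.7 and 38.9 CPM, and WT, at 42.4, 37.6 and 38.5, overlapped both. Over the settings, Atp5g2 ranged from 0.15 to 0.26, Sdhc from 0.030 to 0.27 and Ndufc1 from 0.050 to 0.23. The lowest values of Sdhc and Ndufc1 came with the bulb markers as covariate, and without Tia1+/- replicate 1 they were at 0.15 and 0.13, with Atp5g2 at 0.15.

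The interaction term is the log2 difference between P301S Tia1+/- and PS19 minus that between Tia1+/- and WT. It asks whether the difference that goes with the Tia1+/- label depends on P301S tau. Sex cannot be told apart from Tia1 genotype in this term. All 11 olfactory bulb markers were also positive in it (median 9.14), and their part was not tested. No member was called, against 0.00648% of all genes, 10 had an unadjusted p under 0.05, all positive, against 22.9%, and DESeq2 called 2, against 8.06%. Of 90 members 74 were positive with a median of 0.12, against 0.0049 over all genes. All 15 ATP synthase subunits (median 0.23) and all 11 complex IV subunits (median 0.19) were positive, as were 31 of 35 in complex I (median 0.074), 3 of 4 in complex II (median 0.16) and 5 of 8 in complex III (median 0.17). The complex I assembly factors were positive in 2 of 7 (median −0.028). Cox5a had an interaction of 0.40 (SE 0.10, adjusted p = 0.0758 by edgeR's quasi-likelihood test and 0.00583 by DESeq2), Cox7c of 0.38 (SE 0.11, adjusted p = 0.0975 and 0.0323) and Atp5g2 of 0.38 (SE 0.13, adjusted p = 0.123 and 0.0718). In the comparisons of 2 groups with 3 mice each, an exact permutation test, 2-sided, cannot go below p = 0.10. The single-gene values of edgeR's quasi-likelihood test rest on the spread that edgeR shares over genes.

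How far these medians depended on single libraries and on gene length was examined by complex. In PS19 against WT, leaving out each library in turn gave ATP synthase medians from −0.16 to −0.091 and complex IV medians from −0.18 to −0.094, and the smallest values came without WT replicate 3. The medians of complexes I, II and III were then at −0.0045, 0.013 and 0.0041, with 17 of 35, 2 of 4 and 4 of 8 subunits positive, so that the medians of complexes II and III turned positive. In Tia1+/- against WT, complex I was at 0.034 without WT replicate 3 and ATP synthase at −0.016 without Tia1+/- replicate 1. In P301S Tia1+/- against PS19, ATP synthase ranged from 0.12 to 0.21 and complex IV from 0.021 to 0.14, and the lowest value of both came without PS19 replicate 2, where complex I was at 0.046. In P301S Tia1+/- against Tia1+/-, complexes I and III were at −0.014 and −0.034 without P301S Tia1+/- replicate 1, and complex IV at −0.0017 without Tia1+/- replicate 1. For the interaction, complex I ranged from 0.0072 (20 of 35 positive, without WT replicate 3) to 0.11, complex II from 0.098 to 0.18, complex III from 0.099 to 0.18, complex IV from 0.12 to 0.24 and ATP synthase from 0.16 to 0.24. Members are short, with a median transcript of 863 bases against 2832 over all genes tested, and have a GC content of 51.6% against 50.4%. With offsets that take out each library's trend on length and GC content, the complex I median in P301S Tia1+/- against PS19 was 0.037, that of complex II 0.060, of complex III 0.054, of complex IV 0.072 and of ATP synthase 0.13, and the medians in PS19 against WT were −0.11 for both ATP synthase and complex IV. Without WT replicate 1 and Tia1+/- replicate 3, ATP synthase was at −0.16 and complex IV at −0.19 for PS19 against WT.

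**Figure D5:**
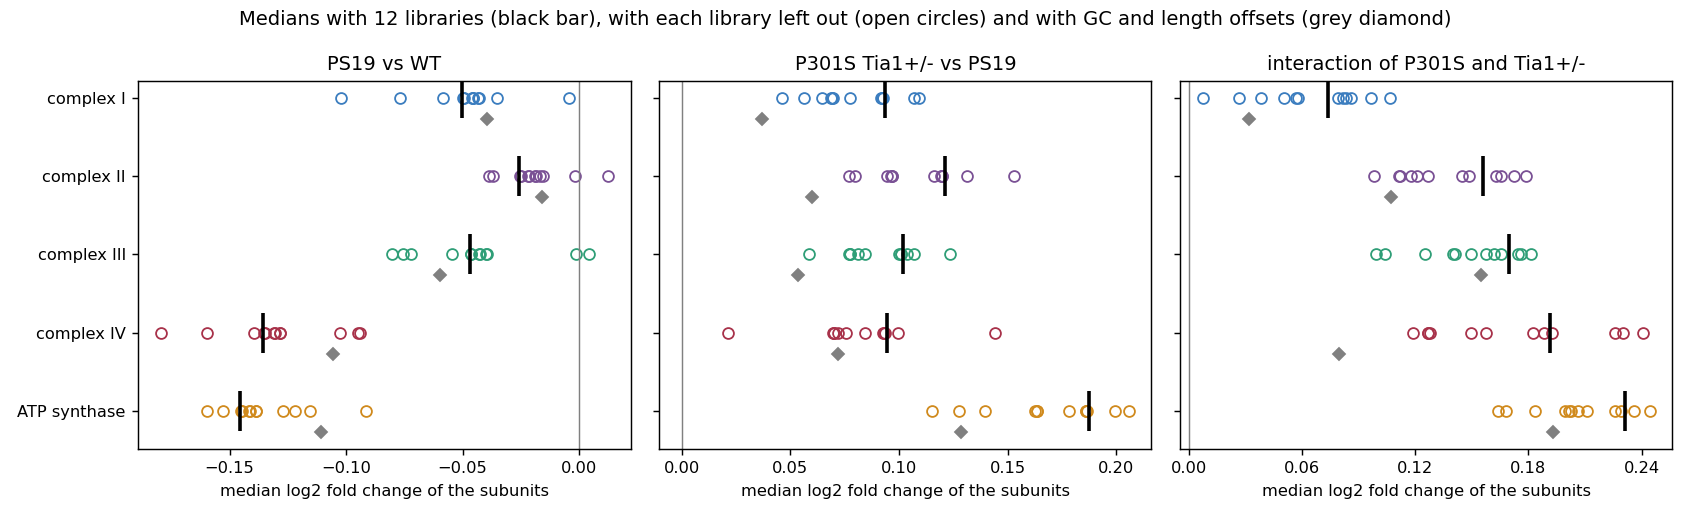
Median log2 fold change of the subunits of each complex in 3 comparisons, with all 12 libraries (black bar), with each library left out in turn (open circles) and with offsets for GC content and length (grey diamond). ATP synthase and complex IV stay left of 0 for PS19 against WT and all complexes stay right of 0 for P301S Tia1+/- against PS19, with complex IV at 0.021 in the lowest fit.

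Among all members, 2 stood farthest from the rest in 1 library. Cox6a2, the muscle form of subunit 6a at 7:128205435-128206387, was at 0.40, 4.0 and 4.6 CPM for WT, 7.0, 6.6 and 1.9 for Tia1+/-, 4.9, 3.4 and 4.2 for PS19, and 1.9, 2.5 and 1.6 for P301S Tia1+/-. WT replicate 1 and Tia1+/- replicate 3 lay far under their groups, and P301S Tia1+/- under PS19 in every library. Pvalb, which marks the interneurons that express parvalbumin, was low in the same libraries, with 8.4, 83.4 and 98.3 CPM for WT, 67.7, 80.5 and 23.3 for Tia1+/-, 40.4, 33.0 and 59.1 for PS19, and 26.9, 23.5 and 24.5 for P301S Tia1+/-. Of the same list of 6 interneuron markers, Sst and Vip were also lowest in these 2 libraries within their groups. Gad1, Gad2 and Slc32a1 were highest there. The list summed to 1710, 930 and 893 CPM for WT and to 719, 774 and 1674 for Tia1+/-. It summed to between 685 and 805 CPM for PS19 and between 1287 and 1491 for P301S Tia1+/-. The part of cell makeup in this was not tested. The Cox6a2 difference between P301S Tia1+/- and PS19 was −1.07 (SE 0.65, adjusted p = 0.386 by edgeR's quasi-likelihood test). Without WT replicate 1 and Tia1+/- replicate 3 it was −1.10 (adjusted p = 0.00399), and with mean log2 CPM of the bulb markers as covariate it was 2.80 (adjusted p = 0.0291), so its direction turned with the setting. Ndufa4l2, at 10:127514967-127517154, was at 1 count (0.064 CPM) in Tia1+/- replicate 3 and between 0.42 and 1.3 CPM elsewhere.

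Other genes of the pathway that the symbols did not catch were counted as well. Of 8 listed subunits and carriers 7 were tested, and 0 were called in any comparison by edgeR's quasi-likelihood test. In PS19 against WT all 7 were negative (median −0.059), in P301S Tia1+/- against PS19 5 of 7 were positive (median 0.049), and the interaction was positive in 6 (median 0.15). In Tia1+/- against WT 5 of the 7 were also negative, with a median of −0.089. Slc25a5, an ADP/ATP carrier, was at 286, 269 and 264 CPM for WT, 232, 240 and 270 for Tia1+/-, 230, 214 and 227 for PS19, and 308, 285 and 270 for P301S Tia1+/-. PS19 lay below WT and P301S Tia1+/- in every library, with differences of −0.29 from WT (adjusted p = 0.176) and 0.36 for P301S Tia1+/- against PS19 (adjusted p = 0.0921). Cycs, cytochrome c, was at −0.34 for PS19 and −0.39 for Tia1+/- against WT (adjusted p = 0.197 and 0.102), and −0.085 for P301S Tia1+/- against PS19.

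The assembly factors outside the symbols also gave 0 calls. In PS19 against WT and P301S Tia1+/- against PS19, medians were −0.034 and 0.11 for 8 factors of complex I, 0.050 and 0.059 for 5 of complex III, −0.018 and 0.033 for 18 of complex IV, and −0.022 and 0.12 for 3 of ATP synthase. Of 10 regulators of mitochondrial biogenesis 8 were negative in PS19 against WT (median −0.20) and 6 positive in P301S Tia1+/- against PS19 (median 0.097), with 0 calls. In Tia1+/- against WT 8 of the 10 were negative too (median −0.12). Esrra, which encodes ERRalpha, was at 57.5, 44.8 and 49.0 CPM for WT, 42.3, 44.7 and 42.1 for Tia1+/-, 37.1, 29.1 and 43.5 for PS19, and 50.2, 48.0 and 52.1 for P301S Tia1+/-. Its differences were −0.46 (adjusted p = 0.182) and 0.45 (adjusted p = 0.139), and its interaction 0.68 (adjusted p = 0.0895, edgeR's quasi-likelihood test). Ppargc1a, the coactivator PGC-1alpha, was at −0.35 for PS19 against WT (adjusted p = 0.182).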

How the data were processed

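RNA from mouse cortex was made into stranded total RNA libraries and sequenced in pairs of reads, with 1 library for each of 3 mice per genotype. The submitters' processing notes name TopHat2 2.0.6 and mm10, while the study's methods name Bowtie and another TopHat version. The authors deposited raw counts per gene from featureCounts, as whole numbers without normalization. The gene annotation, the strand setting and the handling of reads with several alignments are not given in the sources used here, so counts of members with close copies are uncertain. For the values given here, counts were scaled by TMM, filtered with filterByExpr and tested with the quasi-likelihood test of edgeR 4.0.16 (R 4.3.3) in 1 fit of 12 libraries with a mean per group. p values were adjusted by Benjamini-Hochberg over 15440 genes. DESeq2 1.42.0 was an alternative. Fold changes of both tools were checked on simulated counts with 200 genes changed in PS19. The simulation held no differences in sex or tissue makeup, so it says nothing on calls where libraries differ in these. CPM per kb used the principal transcript in GENCODE M21 (GRCm38), and promoter windows came from RefSeq.

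The members and lists were chosen with earlier results of these data known. Named members are the 3 with the smallest p per comparison, the highest and lowest subunit per complex, the core subunits, the isoform pairs and the 2 members farthest out in 1 library. Slc25a5, Cycs, Esrra, Ppargc1a and Pvalb were added once values had been seen. Replicate numbers were checked for pairing. Of 18 pairs of libraries with the same number, 7 had a correlation of deviations over 0.1, with a median of −0.074, and only Tia1+/- with P301S Tia1+/- had all 3 over 0.1. p values set a difference against the spread between libraries within groups, with 1 library per mouse. That spread is shared over groups and genes, and also holds any difference in the tissue taken. 1 member is left out of the levels per length and is not named here.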

Additional observations from a re-analysis of the deposited data

How the results depend on the processing

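DESeq2's Wald test called 2 members in PS19 against WT, 3 in P301S Tia1+/- against PS19 and 2 in the interaction. Fitting only the libraries compared called 8 in P301S Tia1+/- against PS19 (20.1% of all genes). Leaving out each library in turn called 0 to 4 members there, with 4 without WT replicate 1 (10.3% of all genes), and 0 in the other comparisons. Leave-one-out medians ran from −0.11 to −0.035 in PS19 against WT, −0.061 to 0.0091 in Tia1+/- against WT, 0.043 (without PS19 replicate 2) to 0.12 in P301S Tia1+/- against PS19, −0.0037 to 0.062 against Tia1+/-, and 0.047 (without WT replicate 3) to 0.14 in the interaction, which was 0.056 without PS19 replicate 2. The other fits were chosen after seeing the data. Without WT replicate 1 and Tia1+/- replicate 3, 6, 2 and 2 members were called in P301S Tia1+/- against PS19, P301S Tia1+/- against Tia1+/- and the interaction, against 22.9%, 23.4% and 13.5% of all genes. With the mean level of bulb markers as covariate, 3, 1, 6, 2 and 6 members were called in PS19 against WT, Tia1+/- against WT, P301S Tia1+/- against PS19, P301S Tia1+/- against Tia1+/- and the interaction, against 4.37%, 8.2%, 7.19%, 7.82% and 7.8% of all genes, and the medians were −0.19, −0.11, 0.26, 0.18 and 0.39. The bulb markers summed to between 965 and 1113 CPM for P301S Tia1+/- and to between 39.2 and 50.7 for PS19. The covariate can hardly be told apart from these groups, so its medians are no estimate at equal bulb content. The causes were not tested. With the replicate number as a block, 0 members were called in every comparison and the medians were −0.080, −0.036, 0.092, 0.035 and 0.12, so the pairing changed no call. Offsets for GC content and length gave medians over all members of −0.052, −0.020, 0.037, 0.011 and 0.072.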

Other observations

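Neighbouring pathways were counted in the same fits, with 0 calls in each by edgeR's quasi-likelihood test. Of 16 glycolysis genes 15 were positive in PS19 against WT (median 0.13) and 4 for P301S Tia1+/- against PS19 (median −0.026). The exception in PS19 was Ldhb, the lactate dehydrogenase subunit that favours pyruvate, with 591, 480 and 522 CPM for WT, 466, 470 and 549 for Tia1+/-, 416, 399 and 444 for PS19, and 606, 578 and 585 for P301S Tia1+/-. PS19 was below all other libraries, with differences of −0.34 from WT (adjusted p = 0.174) and 0.49 for P301S Tia1+/- against PS19 (adjusted p = 0.0691, edgeR's quasi-likelihood test). Ldhb was added once its values had been seen. The 16 glycolysis genes summed to 8227, 9652 and 9834 CPM for WT and to 9838, 9571 and 10000 for PS19. Only WT replicate 1, the library with the high olfactory bulb markers, lay below every PS19 library. In Tia1+/- against WT 13 of the 16 were also positive (median 0.080). Of 13 tricarboxylic acid cycle genes 4 were positive in PS19 against WT (median −0.051) and 7 for P301S Tia1+/- against PS19 (median 0.013). Of 10 genes of mitochondrial transcription and membrane carriers, 3 and 8 were positive in these comparisons (medians −0.10 and 0.057), and of 8 antioxidant genes 3 and 4 (medians −0.040 and 0.011). In Tia1+/- against WT, 6 of the 13, 4 of the 10 and 3 of the 8 were positive (medians −0.0355, −0.088 and −0.0358).

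Among cell markers, 7 of 7 microglia genes were positive in PS19 against WT (median 0.50), with sums of 263 to 401 CPM for PS19 and 210 to 239 for WT, and all 6 oligodendrocyte genes were positive (median 0.54), with 2235 to 3828 CPM against 1715 to 2593. The quasi-likelihood test of edgeR called 0 of either list there. In Tia1+/- against WT all 6 oligodendrocyte genes were also positive, with a larger median of 0.88 and 1 call. The 7 microglia genes were positive there with a median of 0.072. In P301S Tia1+/- against Tia1+/- 0 of the oligodendrocyte genes were positive (median −0.51).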
